A study of Mus musculus with 2 samples.

Results

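Mir341 and Mir370 are miRNA genes of the imprinted Dlk1-Dio3 region of mouse chromosome 12. The sequences described here are those of 15 to 17 nt that matched either hairpin in full, without a mismatch and on the sense strand. There were 11 of them, 8 in Mir341 and 3 in Mir370, among 96471 distinct sequences of that length in both libraries together. The hairpins are 2 of the 1174 named miRNA genes of the GENCODE M21 annotation, of which 336 held a read. Both genes were selected on their reads and on the ratio of the SB431542 to the DMSO library, so the ratios below are descriptions and no test was made on them.

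The libraries came from J1, a mouse embryonic stem cell line of strain 129S4/SvJae derived from the inner cell mass, kept on gelatin with Knockout Serum Replacement. The DMSO group received the solvent for 24 h and the SB431542 group received 3 µM of SB431542 for 24 h. SB431542 inhibits the type I receptor kinases of the TGF-beta, activin and Nodal pathway. All cells received leukaemia inhibitory factor at 1000 U/mL, a cytokine that keeps them undifferentiated. With 1 library a group no value has a replicate check, and intervals cover counting error only.

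A miRNA is cut from a hairpin precursor, first by Drosha and then by Dicer, and its 5′ end sets the seed, bases 2 to 8, with which it finds its targets. The miRNAs between Dlk1 and Dio3 are expressed from the maternally inherited chromosome, together with the noncoding RNAs Meg3, Rian and Mirg, and expression of this region is widely used as a mark of fully pluripotent mouse stem cells. Rian carries snoRNAs as well as miRNAs. Mature miRNAs are longer than the sequences counted here, which run from 3 to 17 nt, so each value is of fragments of a miRNA and full-length molecules are not analysed here.

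The hairpins are printed to show where the fragments lie, from RefSeq (GRCm38.p6), with the annotated 5p and 3p mature arms in capitals.
Mir341: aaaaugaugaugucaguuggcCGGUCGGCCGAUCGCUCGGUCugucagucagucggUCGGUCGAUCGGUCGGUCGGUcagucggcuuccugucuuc
Mir370: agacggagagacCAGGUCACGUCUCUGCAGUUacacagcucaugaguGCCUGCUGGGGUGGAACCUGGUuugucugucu
Mir341 spans chr12:109611500-109611595 and Mir370 spans chr12:109618258-109618336, both on the plus strand (GRCm38). Neither overlaps an exon of Rian, which runs from 109603940 to 109661716 on the same strand: Mir341 lies in its intron from 109607497 to 109617210 and Mir370 in that from 109617350 to 109620312. Their starts are 6.76 kb apart.

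The mature arms follow, with the seed in capitals, because the reads are placed against their 5′ ends.
mmu-miR-341-5p: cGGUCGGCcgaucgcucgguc
mmu-miR-341-3p: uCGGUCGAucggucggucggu
mmu-miR-370-5p: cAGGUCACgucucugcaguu
mmu-miR-370-3p: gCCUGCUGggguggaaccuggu
Among 1738 mature mouse miRNAs in RefSeq, none shared the seed of miR-341-5p, miR-341-3p or miR-370-3p, and 1, mmu-miR-1193-3p, shared that of miR-370-5p. Mir341 is built of short repeats: the motif GGTC occurs 7 times on the sense strand of its hairpin, in 1 place as 3 copies in a row, and no other of the 1174 hairpins had as many, while 22.9% had it at least once. It holds 12 CG dinucleotides, a number reached by 1.36% of hairpins, against 2 in Mir370 and a median of 1. Despite the repeats each of the 11 sequences occurred once in its hairpin and in no other annotated transcript. The genome outside transcripts and some ribosomal RNA were not searched.

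The most abundant sequences of Mir341 are shown for their 5′ ends and lengths, with the bases of the annotated miR-341-3p seed in capitals. Positions are counted from 1 at the 5′ end of the hairpin.
Mir341 start 57, 17 nt: tCGGTCGAtcggtcggt
Mir341 start 57, 16 nt: tCGGTCGAtcggtcgg
Mir341 start 57, 15 nt: tCGGTCGAtcggtcg
Mir341 start 56, 17 nt: gtCGGTCGAtcggtcgg
Mir341 start 56, 16 nt: gtCGGTCGAtcggtcg
Of the 243 windows of 15 to 17 nt in the Mir341 hairpin, 8 were found as reads, and all 8 began at positions 56 to 59. They lie in the 3p arm. Position 57 is the first base of the annotated miR-341-3p, so the leading fragments carry its 5′ end and end before its 3′ end, by 4 nt in the longest. No read of 15 to 17 nt came from the 5p arm, which allows up to 38.5 reads per 1000000 miRNA reads (RPM) with DMSO and 138 with SB431542 (a floor of 3 reads in each library). In the fold predicted by RNAfold (-42.0 kcal/mol), position 57 pairs with position 40 of the 5p arm, which ends at position 42.

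Mir341 had 654 reads in the DMSO library and 91 in the SB431542 library, out of 77907 and 21808 reads assigned to miRNA hairpins. These are 8395 RPM with DMSO and 4173 RPM with SB431542, a 2.00-fold lower level in the SB431542 library (log2 -1.002, 95% exact conditional binomial interval -1.34 to -0.69; pseudocount 0.5 read). On the other scale, all reads of 15 to 17 nt (990296 and 517535), the levels were 660 and 176 per 1000000 reads, 3.74-fold lower (log2 -1.90, -2.24 to -1.59). The scales differ because 7.87% of such reads lay in miRNA hairpins with DMSO and 4.21% with SB431542, and whether the shift of 0.90 between them belongs to the cells or to the libraries was not tested. The counts are of fragments of up to 17 nt, so whether the level of the full-length miRNA differed was not tested. Fewer cells with these fragments and fewer fragments in each cell cannot be told apart.

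The leading sequence, of 17 nt from position 57, had 432 reads with DMSO and 64 with SB431542. That is 5545 against 2935 RPM, lower with SB431542 by 1.88-fold (log2 -0.91, -1.32 to -0.54), and -1.81 per reads of 15 to 17 nt. It is 64.7% G and C and made up 66.1% of the reads of the hairpin with DMSO (Clopper-Pearson interval 62.3 to 69.7) and 70.3% with SB431542 (59.8 to 79.5). Those shares overlap widely within counting error.

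The sequence 1 nt shorter at its 3′ end, of 16 nt, had 172 and 14 reads. It was 3.33-fold lower in RPM (log2 -1.74, -2.68 to -0.996) and stood at -2.64 per reads of 15 to 17 nt, with a GC content of 68.8%. Its share of the Mir341 reads was 26.3% with DMSO (23.0 to 29.9) and 15.4% with SB431542 (8.67 to 24.5). At the same start, the ratio of the 17 nt sequence exceeded that of the 16 nt sequence by 0.86 on the log2 scale, estimated without a pseudocount, with an interval that includes 0 (-0.03 to 1.85). The 15 nt sequence from position 57, 66.7% G and C, had 19 and 2 reads (log2 -1.13 in RPM, -4.56 to 0.64; -2.03 per reads of 15 to 17 nt).

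The sequences from position 56 begin 1 nt before the annotated miR-341-3p, and a miRNA with that 5′ end would carry the seed UCGGUCG in place of CGGUCGA. The 17 nt sequence from position 56, 70.6% G and C, had 21 reads with DMSO and 10 with SB431542, 270 against 459 RPM (log2 0.80, -0.48 to 1.92), and -0.10 per reads of 15 to 17 nt (-1.38 to 1.02). For the 16 nt sequence the reads were 6 and 1 (GC content 68.8%; log2 -0.28 in RPM, -6.27 to 2.30; -1.18 per reads of 15 to 17 nt). The remaining sequences of Mir341, of 15 nt from position 56, 17 nt from 58 and 15 nt from 59, had 2, 1 and 1 reads with DMSO and 0 each with SB431542. Their GC contents were 66.7%, 70.6% and 66.7%.

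**Figure D1:**
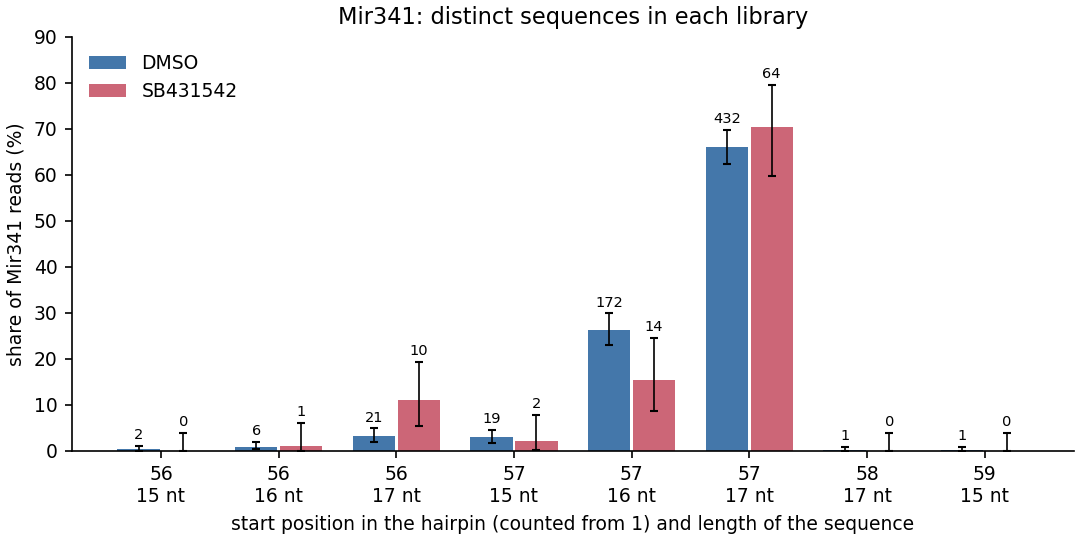
Share of the Mir341 reads (%) held by each of the 8 distinct sequences, by start position and length, in the DMSO and SB431542 libraries. Bars are shares within a library, error bars are 95% Clopper-Pearson intervals and the numbers above them are reads; the 17 nt sequence from position 57 leads in both, and the 17 nt sequence from 56 has 21 and 10 reads.

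Summed by start, position 57 held 623 reads with DMSO and 80 with SB431542 (log2 -1.12 in RPM, -1.48 to -0.79), and position 56 held 29 and 11 (log2 0.48, -0.71 to 1.48). The share of position 56 was 4.43% with DMSO (2.99 to 6.31) and 12.1% with SB431542 (6.19 to 20.6). Without a pseudocount, the ratio for position 56 exceeded that for 57 by 1.56 on the log2 scale (0.35 to 2.67), a comparison that does not depend on the scale. It rests on 11 reads of 1 library, was chosen after the values were seen, and has no replicate.

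Summed by length, the 15 nt sequences had 22 reads with DMSO and 2 with SB431542, those of 16 nt 178 and 15, and those of 17 nt 454 and 74. The share of 17 nt was 69.4% with DMSO (65.7 to 72.9) and 81.3% with SB431542 (71.8 to 88.7). The log2 ratio in RPM was -1.69 for 16 nt (-2.60 to -0.97) and -0.77 for 17 nt (-1.15 to -0.42). For 15 nt it was -1.33, with an interval that includes 0 (-4.76 to 0.40). G and C made up 66.1% of the Mir341 bases in both libraries.

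**Figure D2:**
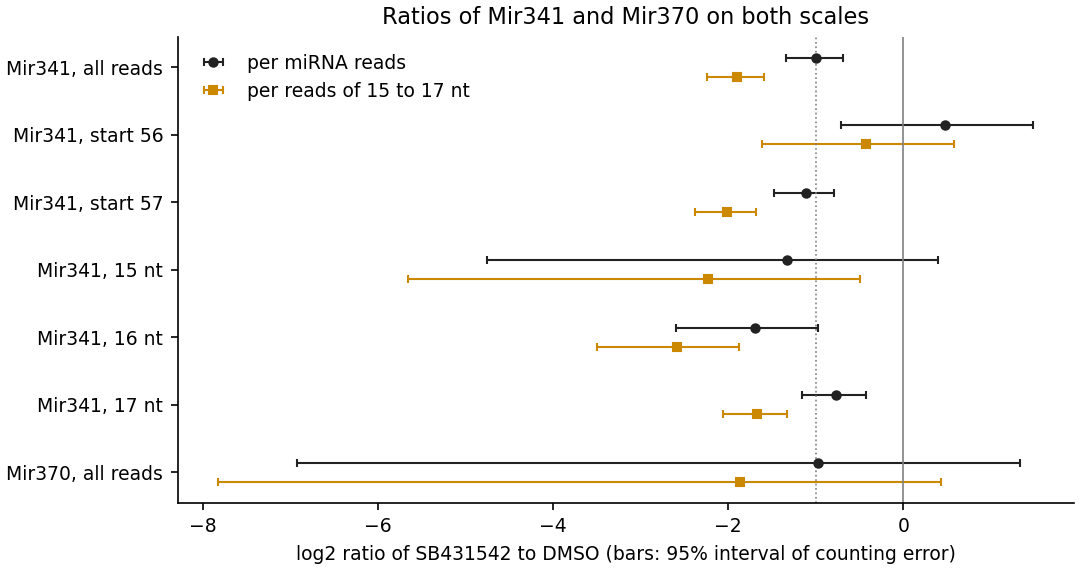
Log2 ratio of SB431542 to DMSO for Mir341, its reads by start (56 or 57) and by length, and Mir370, per miRNA reads (circles) and per reads of 15 to 17 nt (squares), with 95% intervals of counting error. The dotted line marks a 2-fold lower level; the ratio of position 57 lies near it at -1.12 in RPM, that of position 56 at 0.48, and the interval of Mir370 includes 0 on both scales.

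These shifts were set beside all 45 miRNA arms that reached 50 reads in the pair of libraries, a comparison chosen after the values were seen. Reads 1 nt before the commonest start were seen in 18 of them, with a share higher with SB431542 in 9 and lower in 9. The difference of 7.65 percentage points in miR-341-3p was the third highest of the 45, after Mir674-5p (0% with DMSO and 13.6% with SB431542, of 22 reads) and Mir101b-3p (28.3% and 39.2%). Of the other arms of the Dlk1-Dio3 region with such reads, Mir409-3p had a lower share with SB431542 (3.25% and 2.12%). The shares were 16.6% and 17.6% in Mir431-3p, 17.9% and 18.2% in Mir434-5p, 1.40% and 1.77% in Mir323-3p, and 0.0586% and 0.112% in Mir382-5p. The share of 17 nt reads was higher with SB431542 in 27 arms and lower in 18, with a median difference of 0.96 percentage points, against 11.9 in miR-341-3p, the fourth highest.

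**Figure D3:**
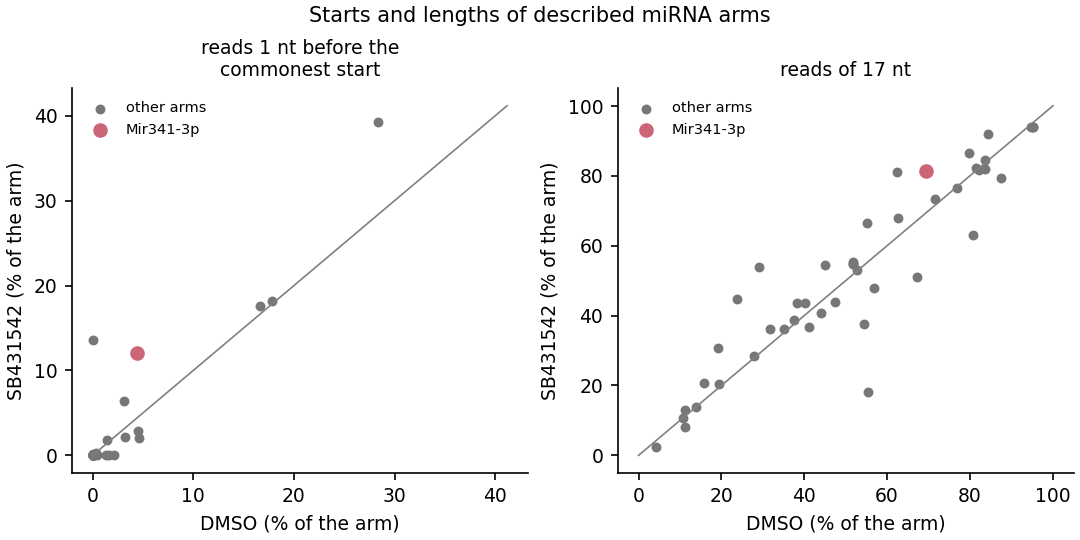
Share of an arm's reads (%) that begin 1 nt before its commonest start (left) and that are 17 nt long (right), DMSO on the x axis and SB431542 on the y axis, for the 45 arms with at least 50 reads. The line marks equal shares; miR-341-3p, the larger point, lies above it in both, at 4.43% and 12.1% on the left and 69.4% and 81.3% on the right.

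The ratio was also set beside sequences outside miRNA hairpins that have a like GC content. Those of 60 to 70% G and C with at least 20 reads, 944 in number, had log2 ratios per reads of 15 to 17 nt with a median at -0.01 and quartiles at -0.57 and 0.51, against -1.90 for Mir341. The miRNA hairpins with at least 50 reads lay lower as a class on that scale, with a median of -0.88. In the bin of 70 to 80%, which holds the 17 nt sequence from position 56, the median was 0.05, and that sequence stood at -0.10.

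Near matches were few. Sequences that differed from the Mir341 hairpin in 1 base and matched no transcript numbered 7, with 7 reads in the DMSO library and 1 in the SB431542 library; in 1 of them, with 2 reads, the last base was the one that differed. No sequence matched the antisense strand of Mir341 or Mir370, exactly or with 1 difference, and no sequence with 1 difference was found for Mir370. At 14 nt, below the limit used here, Mir341 had 10 reads and 2, and Mir370 had 3 and 0.

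Mir370 had 10 reads with DMSO and 1 with SB431542, so little can be said of it at this depth. Its 3 sequences are shown for their starts, with the bases of the annotated seeds in capitals.
Mir370 start 9, 17 nt: agaccAGGTCACgtctc
Mir370 start 9, 16 nt: agaccAGGTCACgtct
Mir370 start 48, 16 nt: gCCTGCTGgggtggaa
The 17 nt sequence from position 9 had 5 reads and 1 (58.8% G and C; log2 -0.04 in RPM, -6.05 to 2.67; -0.94 per reads of 15 to 17 nt). The 16 nt sequence from the same start had 2 reads and 0 (GC content 56.2%), and the 16 nt sequence from position 48 had 3 and 0 (68.8%); both libraries are at or under the floor of 3 reads there and no ratio is given.

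Position 48 is the first base of the annotated miR-370-3p. Position 9, by contrast, lies 4 nt before the annotated start of miR-370-5p at position 13, so the 8 reads of the 5p arm do not begin at the RefSeq 5′ end. In the predicted fold (-41.3 kcal/mol) position 9 pairs with position 71.

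Over both arms the Mir370 reads gave 128 RPM with DMSO against 45.9 RPM with SB431542 (log2 -0.97, -6.92 to 1.33). These are 10.1 and 1.93 per 1000000 reads of 15 to 17 nt (log2 -1.87, -7.83 to 0.43). With the pseudocount of 0.5 read the estimate is near that of Mir341 (Mir341 minus Mir370, log2 -0.03), but this nearness rests on the pseudocount added to 1 read. No difference of Mir370 from DMSO was detectable at this depth. The ratio of Mir341 exceeded that of Mir370 by 0.48 on the log2 scale without a pseudocount (-2.37 to 5.93), an interval too wide to say whether they differ. Mir370 took 3 of 192 possible windows, against 8 of 243 in the Mir341 hairpin, and was the 22nd of 67 annotated hairpins of the region by reads in the DMSO library.

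The other hairpins inside Rian had few reads as well. Mir1188, whose start is 0.322 kb from that of Mir341 in the same intron, had 22 reads with DMSO and 6 with SB431542, 282 and 275 RPM (log2 0.05, -1.63 to 1.31). Gm23912, an unnamed miRNA gene in the intron that holds Mir370, had 1 read with DMSO and 0 with SB431542. The interval of Mir1188 includes both 0 and the value of Mir341.

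Of the RNAs that host the miRNAs, and of other genes of the region, almost nothing was seen that could belong to them alone. Sequences of 15 to 17 nt that matched an exon of Rian and no other gene had 6 reads with DMSO and 0 with SB431542. For Meg3 such reads numbered 0 and 1, for Mirg 2 and 0, for Dlk1 1 and 0 and for Dio3 0 and 0, and for the 13 snoRNA genes inside Rian 1 and 0. Whether the level of Rian moved with that of Mir341 was therefore not detectable at this depth.

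Across the Dlk1-Dio3 region 46 of 67 annotated hairpins held a read. By reads Mir341 was the 5th in the DMSO library and the 6th in the SB431542 library, with 3.40% of the reads of the region's hairpins in the first (3.15 to 3.67) and 1.64% in the second (1.32 to 2.01). The hairpins above it in both were Mir382 (8549 and 2670 reads), Mir409 (7533 and 1979), Mir431 (784 and 267) and Mir411 (728 and 257), and Mir323 (358 and 113) passed it in the SB431542 library. Mir431 and Mir411 lay close to Mir341 with DMSO, at 10063 and 9344 against 8395 RPM, but not with SB431542, at 12243 and 11785 against 4173 RPM.

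The log2 ratios in RPM were 0.16 for Mir382 (0.09 to 0.22), -0.09 for Mir409 (-0.16 to -0.02), 0.28 for Mir431 (0.08 to 0.49) and 0.34 for Mir411 (0.12 to 0.54). Per reads of 15 to 17 nt they were -0.74, -0.99, -0.62 and -0.56, so the sign for Mir382, Mir431 and Mir411 turns with the scale, as it does with edgeR factors, which set every log2 ratio 0.35 lower than RPM, while Mir341 is below 0 on each. Of the 10 hairpins of the region with at least 50 reads, Mir341 was at least 2-fold lower and the other 9 lay within 2-fold, from -0.56 to 0.59 with a median of 0.18. Among 45 such hairpins in the whole annotation, 4.44% were at least 2-fold lower on this scale and 4.44% at least 2-fold higher, with a median of 0.03. Mir341 ranked 2 from the lowest of the 45, after Mir181d (79 and 7 reads, -1.57, -3.02 to -0.55). The higher hairpins were Mir6538 and Mir5126, with 93.7% and 100% G and C in the reads of their leading arms with DMSO. Per reads of 15 to 17 nt 37.8% of the 45 were at least 2-fold lower, 3 of the 10 of the region among them. Without a read minimum, 14 of the 46 hairpins of the region with a read were below 0 in RPM. Of the 46, 2 were at least 2-fold lower and 6 at least 2-fold higher. In the whole annotation these were 25 and 123 of 336. Most of those hairpins had few reads, and the pseudocount moves such hairpins upward. The 2-fold line runs through the estimate of Mir341 in RPM, and its interval covers values on both sides.

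Summed, the 9 other hairpins had 18266 reads with DMSO and 5376 with SB431542, a log2 ratio in RPM of 0.07 (0.03 to 0.12). The ratio of Mir341 was lower than that sum by 1.08 on the log2 scale (ratio of ratios without a pseudocount -1.08, -1.42 to -0.76), whatever total is used. Mir382 and Mir409 supply most of the sum, and Mir341 was chosen for its low ratio, so the difference is given as a description of these 2 libraries.

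**Figure D4:**
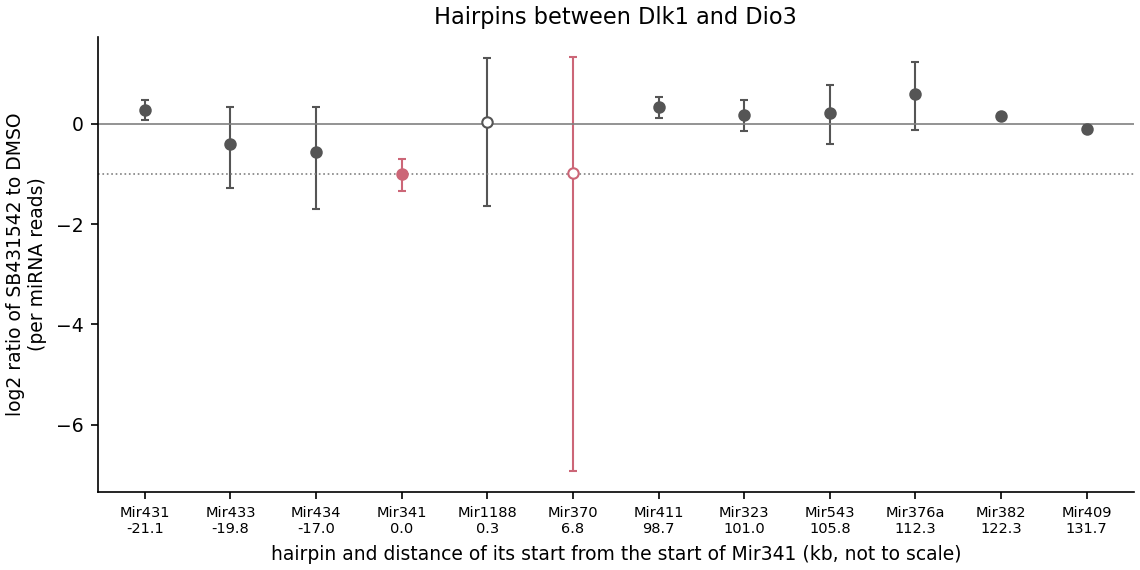
Log2 ratio of SB431542 to DMSO per miRNA reads for hairpins between Dlk1 and Dio3, in genomic order with the distance from Mir341 in kb under each name; bars are 95% intervals of counting error. Filled points have at least 50 reads, open points (Mir1188, Mir370) fewer; Mir341 lies on the dotted line of a 2-fold lower level at -1.002, and the other filled points lie between -0.56 and 0.59.

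Of the arms with at least 50 reads, 4.44% were at least 2-fold lower and 6.67% at least 2-fold higher with SB431542 in RPM, and 33.3% were at least 2-fold lower per reads of 15 to 17 nt. Those nearest in log2 ratio in RPM to miR-341-3p were Mir181c-3p (235 and 34 reads, -0.93), Mir148a-3p (428 and 66, -0.85) and Mir291a-5p (198.5 and 35.5, -0.63), whose fractions come from sequences divided among hairpins. The nearest to the 5p arm of Mir370 (7 and 1 reads, -0.49, -6.46 to 1.99) were Mir434-5p (56 and 11 reads, -0.46), Mir185-3p (239 and 49, -0.44) and Mir152-3p (170 and 32, -0.55). With 1 SB431542 read, under the floor of 3 reads, that estimate and the choice of its nearest arms rest on the pseudocount. With 2 libraries such likeness is that of a single ratio.

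Of the miRNAs that mark the cells, 7 of 9 genes of the stem cell cluster from Mir290a to Mir295 held reads, 39534 in all with DMSO and 10514 with SB431542 (log2 -0.07 in RPM, -0.11 to -0.04). Mir293 alone had 38937 and 10364 of them, and the median over the 7 genes was 0.12, of the opposite sign, in a range from -1.08 to 0.37. The 5 genes of the Mir302 and Mir367 cluster, which primed pluripotent cells express, had no read in either library. The fibroblast and feeder list summed to 226 and 41 reads over 5 of its 8 genes (log2 -0.61, -1.14 to -0.14). Mir152 (170 and 32 reads) and Mir143 (55 and 8) supplied all but 1 read in each library, which lay in Mir199 genes. The part of the list in the ratio of Mir341 was not tested. The let-7 family of differentiating cells had 38 and 14 reads over 11 of 12 genes (log2 0.43 in RPM, -0.60 to 1.31). Per reads of 15 to 17 nt the stem cell cluster stood at -0.97 (-1.01 to -0.94). On that scale the fibroblast and feeder list stood at -1.51 (-2.04 to -1.04) and let-7 at -0.47 (-1.50 to 0.41). The stem cell cluster supplies a large part of the miRNA totals (77907 and 21808 reads), which holds its RPM ratio near 0. G and C made up 60.7% of the bases of all 15 to 17 nt reads in the DMSO library and 64.2% in the other.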

How the data were processed

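Both files deposited by the authors hold raw read counts per distinct sequence of 3 to 17 nt, with its length. How they trimmed, filtered or aligned reads was not given in the sources used here, beyond genome build mm9, per the submitters' processing notes; their coordinates were not used. Per the labels, libraries were made from total RNA with an Illumina TruSeq RNA kit. Exact, full-length sense matches of sequences from 15 nt up were sought in GENCODE M21 transcripts (GRCm38). Those with a match in a different small RNA class or in over 5 other genes were set aside, and those found in several hairpins were divided equally. Levels are reads per 1000000 reads assigned to miRNAs (RPM), or per 1000000 reads of 15 to 17 nt. Ratios carry a pseudocount of 0.5 read; differences between ratios are conditional odds ratios from the reads alone, without one. The 95% intervals are exact binomial (Clopper-Pearson, conditional for ratios); they and the floor of 3 reads cover counting error only, since reads without molecular identifiers are not independent molecules. Arms were split at the middle of the hairpin. Named sequences were those with at least 20 reads over both libraries or the 5 most abundant of a hairpin; named hairpins were those inside Rian, the 5 of the region with most reads and the 3 arms nearest in ratio. Members and lists were chosen with earlier results of these data known. The matching and intervals were tested on simulated data. Software was Python 3.11.15, numpy 2.4.6, scipy 1.17.1, pandas 2.3.3, matplotlib 3.10.9, RNAfold 2.7.2, and R 4.3.3 with edgeR 4.0.16 and DESeq2 1.42.0 for scaling factors only.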

Additional observations from a re-analysis of the deposited data

Results flagged for a closer look

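Reads of 15 to 17 nt that matched an exon of Rian, alone or with other genes, were outside the comparison of hairpins and took a larger part of the SB431542 library, 146 reads against 194 with DMSO (log2 0.53 per reads of 15 to 17 nt, 0.21 to 0.84). Those that matched Meg3 numbered 84 against 48 (log2 1.74, 1.22 to 2.29). The sequences also lie in many other genes, a median of 280 for those of Rian and 175.5 for those of Meg3, and the reads found in no other gene were 6 and 0 for Rian and 0 and 1 for Meg3. For Meg3, 1 sequence found in 2021 other genes supplied 45 of the SB431542 reads and 15 of the DMSO reads. Without it 39 SB431542 and 33 DMSO reads were left. The leading sequence of Rian, found in 126 other genes, had 27 SB431542 and 68 DMSO reads, and 119 and 126 were left without it.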

How the results depend on the processing

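The log2 ratio of Mir341 stayed below 0 in 15 of 15 alternatives per miRNA reads and in 11 of 11 per reads of 15 to 17 nt. It was at least 2-fold lower in 9 of the first and 10 of the second, so the 2-fold call in RPM depends on the setting. With edgeR factors it was -1.35, and as distinct sequences with the DMSO library thinned -0.30 in RPM and -0.49 per reads of 15 to 17 nt. That last setting counts sequences, 8 with DMSO and 5 with SB431542, whatever their reads, so it cannot show a fold in reads. Mir370, with 11 reads, turned positive in RPM with a pseudocount of 5 reads (0.515), with the DMSO library thinned (0.22) and as distinct sequences (0.33; 0.14 per reads of 15 to 17 nt). Thinning was 1 random draw, which left 2 of the 10 DMSO reads of Mir370, and another draw could give another value. The difference between Mir341 and Mir370 turned from 0.48 to -1.46 with a pseudocount of 5 reads, -0.0312 with 0.5 read, -0.30 at 17 nt only, -1.004 with thinning and -0.68 as distinct sequences. Hairpins at least 2-fold lower and higher, 2 and 2 of 45, became 25 and 123 of 336 without a read minimum and 17 and 0 per reads of 15 to 17 nt. Without a minimum the pseudocount moves hairpins of few reads upward, because the SB431542 library is smaller. Gm23912, with 1 DMSO read and 0 with SB431542, stood at 0.25 in RPM, so the 123 are not a count of raised hairpins. The lower and higher counts were 6 and 1 with edgeR factors and 5 and 1 with DESeq2 factors, and 1 was lower of 26 with at least 200 reads. The edgeR and DESeq2 factors moved all log2 ratios by -0.35 and -0.25. A minimum of 14 nt, reads at position 57 only and the pseudocount of 0.5 read in the difference were chosen after seeing the data. Requiring 10 reads per sequence left none in Mir370, and without its leading sequence the difference had no value. No paired analysis was possible because each group has 1 library.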
